A study of Mus musculus with 6 samples.

Results

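The genes described here make ribosomes: a list of 40 genes for RNA polymerase I transcription, the nucleolus and the processing of ribosomal RNA. They were found in the deposited table by exact gene name. All 40 had a row, out of 20015 in the table, and all 40 passed the filter on low counts, out of 16095 genes tested. They fall into 11 polymerase I factors, 12 nucleolar proteins and small nucleolar ribonucleoprotein (snoRNP) cores, and 17 processing and assembly factors.

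RNA was sequenced from quadriceps, the muscle group that extends the knee, in 3 libraries labelled as injured and 3 labelled as non-injured, each group lettered A to C. The injury is to the anterior cruciate ligament (ACL) of the knee, and the series title names depressed protein synthesis and muscle loss after it. Strain, genotype, age, time since injury and the limb of origin of the non-injured muscle are not stated. Whether each library is a separate animal is not stated either, and the p-values below then measure only the spread among these 6 libraries, some of which may be technical. The samples are labelled as Mus musculus, although the protocol and design text name human tissue. The rows are mouse gene models, and the start of each of the 40 genes is that of GENCODE M21 on mm10, so the values are read as mouse. The deposited table's name calls the RNA myonuclear, whereas the protocol describes total RNA. Library totals ran from 6.45 to 8.75 M counts. Summed markers of muscle fibres stood at 192107 to 199382 CPM (counts scaled to the library total) in the injured and 207092 to 214758 CPM in the non-injured libraries, and none of the 10 was at 0 in either group.

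Ribosome production begins in the nucleolus. RNA polymerase I transcribes the ribosomal DNA repeats into a long precursor, after the factor UBF has bound the DNA and the factors SL1 and RRN3 have brought the polymerase to the promoter. Small nucleolar RNAs (snoRNAs) then guide chemical marks onto the precursor, and a succession of enzymes and scaffold proteins cut, fold and export the small and the large subunit. In skeletal muscle the number of ribosomes is known as a determinant of how much protein a fibre can make, which is why these genes are often read in studies of muscle growth and loss.

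The transcripts of this machinery differed little between the injured and the non-injured libraries. The median log2 fold change, injured over non-injured, was -0.02 over the 40 genes, 16 of them positive and 24 negative. Over all genes tested it was 0.00, with 8086 positive and 8009 negative. Single values of the 40 genes ran from -0.69 for Taf1d, a promoter-selectivity subunit, to 0.73 for Polr1c, a polymerase subunit. Within 0.3 of zero lay 27 of the 40, beside 9186 of all 16095 genes tested, so most genes of the table lay there too. By group the medians were -0.13 for the polymerase I factors, -0.01 for the nucleolar and snoRNP proteins and -0.01 for the processing factors, and the last pair turned to 0.04 and 0.03, and that of all 40 to 0.03, when libraries were scaled by their upper quartile. The median of the polymerase I factors was -0.32 without injured library B, -0.05 without injured library A and 0.04 without both letter A libraries.

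None of the 40 genes passed edgeR's quasi-likelihood test at an adjusted p under 0.05. Among all genes tested 0.715% passed as higher in injured muscle and 0.0311% as lower, or 0.746% in either direction, and against that background a count of 0 of 40 says nothing particular about these genes. At an unadjusted p under 0.05 there were 6 of the 40 (15%), beside 15.4% of all genes. The 3 higher were Polr1d, Npm1 and Bysl (9.25% of all genes were higher by this rule), and the 3 lower were Taf1d, Gnl3 and Rrs1 (6.11% of all genes were lower). DESeq2 called 0 genes of the list higher, with 1.57% of all genes, and 1 lower, Taf1d, with 0.466% of all genes. Limma-voom called 0 higher and 0 lower, beside 0.329% and 0.0373% of all genes.

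With the letter as a replicate block, which compares injured A with non-injured A and so on, 1 of the 40 genes passed as higher, Polr1d, and 1 as lower, Taf1d. The block raised the calls among all genes as well, to 3.21% higher and 2.65% lower, 5.86% in all, so 2 of 40 is close to the background. The plot of fold changes for the 40 genes shows both as the filled points.

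**Figure D1:**
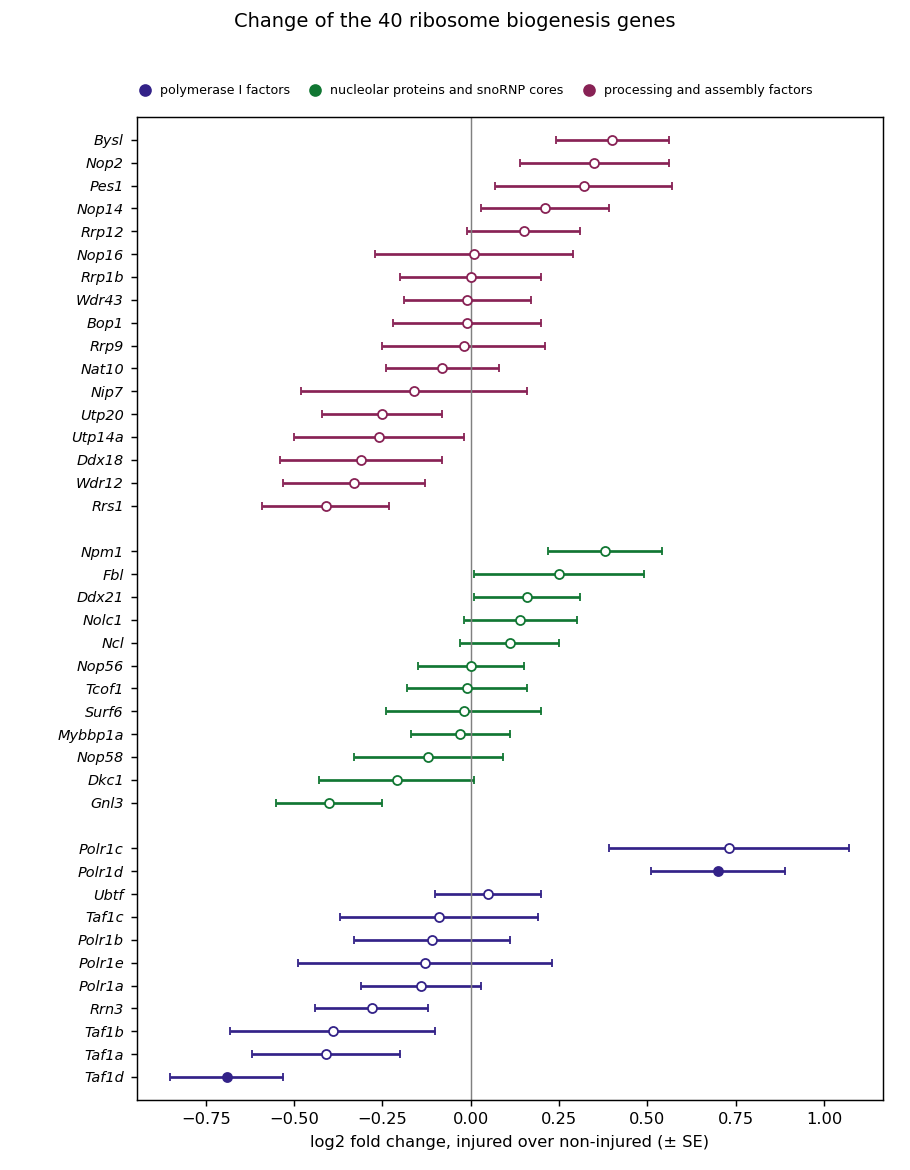
log2 fold change of each of the 40 genes (x axis, injured over non-injured, point) with its standard error (bar), ordered within the polymerase I, nucleolar and processing groups. Filled points had an adjusted p under 0.05 with the letter as a replicate block, which holds for Polr1d at 0.70 and Taf1d at -0.69. Within 0.3 of zero lie 27 of the 40 points, beside 9186 of all 16095 genes tested.

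Of the 40 genes, 9 had injured and non-injured values that did not overlap (22.5%), and 21.5% of all genes tested did the same. In 3 of them, Polr1d, Npm1 and Bysl, the injured libraries were all above, beside 11.9% of all genes. The injured libraries were all below in 6, beside 9.57% of all genes: Rrn3, Taf1a, Taf1b, Taf1d, Gnl3 and Rrs1. Of these 6, 4 (Rrn3, Taf1a, Taf1b and Taf1d) belong to the apparatus that places polymerase I on its promoter, a grouping made after the values were seen. Ubtf and Taf1c, of the same apparatus, overlapped. The unadjusted p in edgeR was 0.0976 for Rrn3, 0.0705 for Taf1a and 0.199 for Taf1b.

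The 5 polymerase subunits in the list differed in size and sign of their fold changes. Polr1d encodes a small subunit shared by RNA polymerases I and III (chromosome 5, 147077050 to 147111598 on mm10, plus strand). Its level was 17.6, 15.9 and 17.5 CPM in injured libraries A, B and C, and 9.82, 12.6 and 8.97 CPM in non-injured libraries A, B and C. Every injured library was above every non-injured one. The mean was 1.62-fold higher in injured muscle, a log2 fold change of 0.70 ± 0.19 (SE), with an adjusted p of 0.11 without the block and 0.036 with it. Leaving out single libraries gave log2 fold changes of 0.57 to 0.84.

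Polr1c encodes the partner of Polr1d, likewise shared by both polymerases (chromosome 17, 46243920 to 46248055). It read 8.42, 4.89 and 5.84 CPM in injured libraries A, B and C against 2.68, 5.28 and 3.48 CPM in the non-injured ones. The groups overlapped, because in letter B the injured value was the lower. The log2 fold change was 0.73 ± 0.34 (SE), with a wider error than that of Polr1d, and its adjusted p was 0.326. It was 0.47 to 1.03 with single libraries left out and 0.28 without both letter A libraries.

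The catalytic subunits showed no such difference. Polr1a, the largest subunit, had 46.5, 56.2 and 58.4 CPM in the injured and 45.5, 68.4 and 63.1 CPM in the non-injured libraries A, B and C. Letter A was lowest in both groups, and the log2 fold change of -0.14 ± 0.17 (SE) was smaller than its error (adjusted p = 0.759). Polr1b, which completes the active centre, stood at 12 ± 3.20 CPM in injured and 13.0 ± 0.398 CPM in non-injured muscle (SD, n = 3). Polr1e, a peripheral subunit that takes part in initiation, was the least abundant of the 5 at 3.14 ± 0.876 and 3.43 ± 0.423 CPM (SD, n = 3). Their log2 fold changes were -0.11 ± 0.22 and -0.13 ± 0.36 (SE).

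Ubtf, the gene for UBF, which keeps ribosomal DNA open, was nearly level at 44.9 ± 3.36 CPM in injured and 43.2 ± 4.85 CPM in non-injured muscle (SD, n = 3). The genes for the remaining initiation factors, Rrn3 and the SL1 subunits Taf1a, Taf1b, Taf1c and Taf1d, all had negative log2 fold changes, with a median of -0.39. This subset of 5 was drawn after the values were seen, and Taf1c turned positive when injured library C, non-injured library A or both letter A libraries were left out.

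Rrn3, whose product bridges polymerase I and the promoter factors, read 18.4, 17 and 18.4 CPM in injured libraries A, B and C and 22.8, 22.5 and 19.9 CPM in the non-injured ones. Taf1a read 7.66, 8.71 and 8.12 CPM against 11.9, 10.4 and 10.2 CPM. Taf1b read 4.13, 3.97 and 3.99 CPM against 4.72, 6.20 and 4.95 CPM. In each of these genes the highest injured library lay below the lowest non-injured one. The log2 fold changes were -0.28 ± 0.16, -0.41 ± 0.21 and -0.39 ± 0.29 (SE), and the adjusted p values of 0.422, 0.374 and 0.562 did not pass. Taf1c overlapped fully, at 7.66 ± 2.48 and 8.14 ± 2.01 CPM (SD, n = 3).

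**Figure D2:**
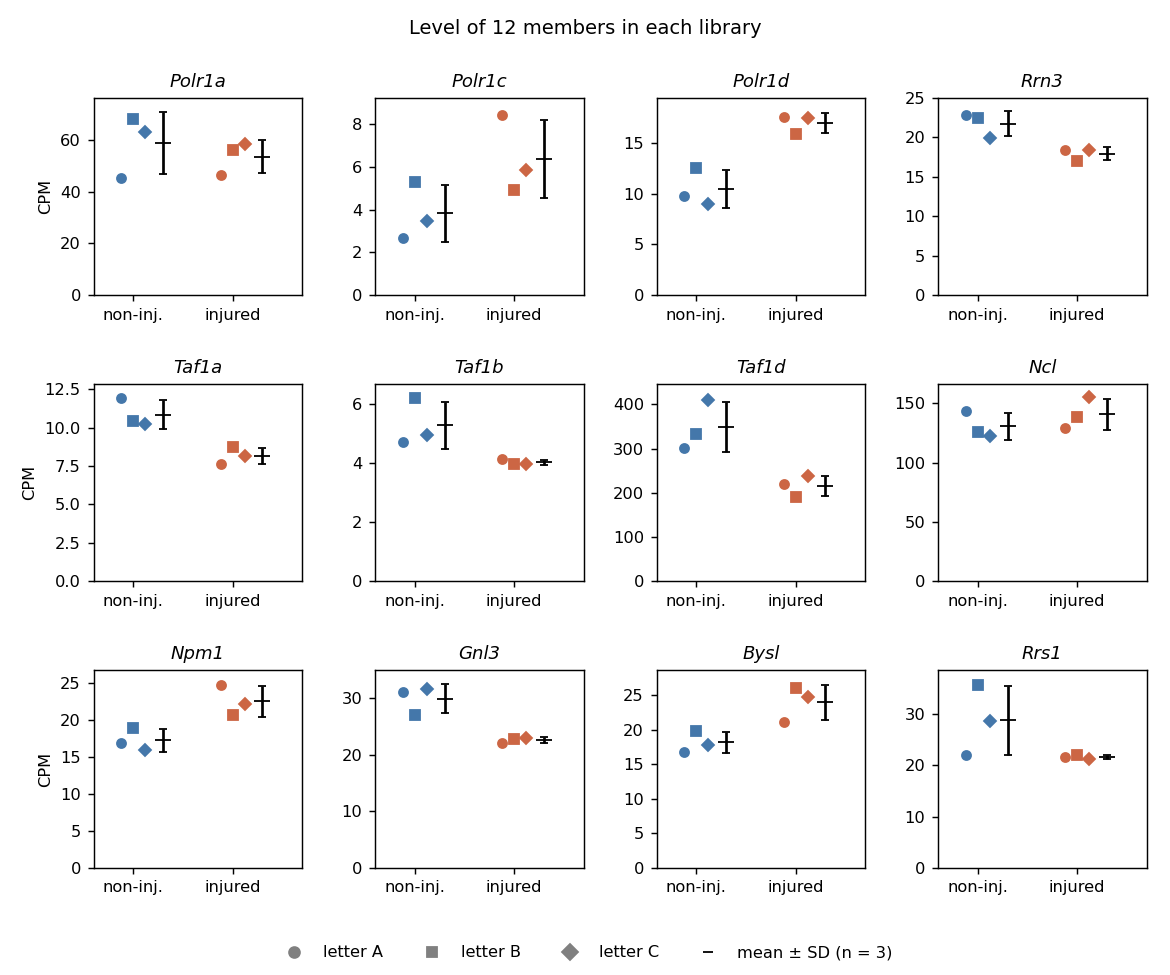
Level in CPM (y axis, starting at 0) of 12 of the genes in each library. Blue marks are non-injured and orange marks injured libraries, shapes give the letter, and black bars are mean ± SD (n = 3). For Taf1d, Rrn3, Taf1a, Taf1b, Gnl3 and Rrs1 every injured library lies below every non-injured one, and for Polr1d, Npm1 and Bysl above, while Polr1a, Polr1c and Ncl overlap.

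Taf1d encodes a TAF subunit of SL1 and showed the lowest log2 fold change of the 40 genes (chromosome 9, 15306214 to 15316992 on mm10, plus strand). It had 219, 191 and 237 CPM in injured libraries A, B and C, and 301, 334 and 410 CPM in non-injured libraries A, B and C. The groups did not overlap, with the highest injured library at 237 CPM and the lowest non-injured at 301 CPM. The mean was 1.61-fold higher in non-injured muscle, a log2 fold change of -0.69 ± 0.16 (SE). The unadjusted p was 0.000685 and the adjusted p 0.0645, just outside the threshold. It became 0.00201 with the letter as a block and 0.00346 in DESeq2, and was 0.063 in limma-voom.

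Whether Taf1d passed depended on single libraries. Without non-injured library A the log2 fold change was -0.81 and the adjusted p 0.037, and without both letter A libraries these were -0.80 and 0.0131. Taf1d was the 1 member called lower in each of those settings, in which 0.145% and 0.799% of all genes were called lower and 0.601% and 0.999% higher, none of them among the 40. Without non-injured library C, the highest, the log2 fold change was -0.58 and the adjusted p 0.285.

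The Taf1d row may hold more than its messenger RNA, depending on the annotation used for counting, which is not stated. In GENCODE M21 the gene carries 8 annotated snoRNAs, all 8 of which lie within annotated Taf1d exons, where 6 of its 16 transcripts are retained-intron forms. The merged exons cover 8.95 kb of a span of 10.8 kb, while the coding sequence takes 0.99 kb. Per kb of merged exons Taf1d had 31.5 CPM over all libraries, above the next gene, Ncl, at 13.3 CPM per kb, and far from the other SL1 subunits at 1.78 to 3.94 CPM per kb. Reads from the coding exons, from retained introns and from the snoRNAs cannot be told apart in this table. The row also overlaps exons of 2 genes on the opposite strand, 4931406C07Rik by 235 bases and Cep295 by 77 bases, whose log2 fold changes were 0.02 and -0.23, and the count's strand setting is unknown here.

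Genes of this machinery often carry snoRNAs in their introns, so that transcribing the protein gene also makes the guide RNAs. Among the 40, 7 genes hold 27 annotated snoRNAs: Taf1d 8, Nop56 5, Nop58 4, Ncl 3, Gnl3 3, Wdr43 3 and Dkc1 1. Of the 27, 3 had a row of their own in the table, found by their annotated type and position since they bear Gm names. Their sequences are shown because they are the guide RNAs made together with the 2 hosts, Taf1d and Nop56. Each ends in the box that marks the H/ACA class, which guides the conversion of uridine to pseudouridine; it stands in capitals 3 bases before the end. Sequences are those of GENCODE M21 transcripts on mm10, plus strand, 5′ to 3′.
Gm25791 in Taf1d, chr9:15314845-15314981: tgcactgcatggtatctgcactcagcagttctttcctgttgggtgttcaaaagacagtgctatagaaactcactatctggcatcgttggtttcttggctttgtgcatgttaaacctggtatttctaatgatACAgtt
Gm24455 in Taf1d, chr9:15313802-15313932: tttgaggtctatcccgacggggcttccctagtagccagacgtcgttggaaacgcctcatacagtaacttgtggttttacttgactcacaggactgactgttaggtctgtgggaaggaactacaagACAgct
Gm24451 in Nop56, chr2:130276237-130276369: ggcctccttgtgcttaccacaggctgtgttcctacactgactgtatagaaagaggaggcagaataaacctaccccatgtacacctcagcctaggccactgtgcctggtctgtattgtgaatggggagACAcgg

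The H/ACA RNA Gm25791 was counted 19, 21 and 39 times in injured libraries A, B and C and 57, 50 and 60 times in the non-injured ones. All injured libraries were below all non-injured ones, as for its host Taf1d. The log2 fold change was -0.84 ± 0.32 (SE), with an adjusted p of 0.234, or 0.0826 with the letter as a block. Its neighbour Gm24455, inside the same host, had 0, 14 and 18 counts against 7, 9 and 18, which overlap (log2 fold change 0.14 ± 0.79, SE).

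Gm24451 lies in Nop56, which encodes a box C/D snoRNP core protein. It was counted 31, 51 and 48 times in injured and 67, 107 and 110 times in non-injured libraries A, B and C, again without overlap. The log2 fold change was -0.87 ± 0.27 (SE), with an adjusted p of 0.144, and with the letter as a block it passed at 0.0264. Its host was level: Nop56 had 36.0, 37.1 and 33.5 CPM in injured and 30.0, 36.6 and 39.9 CPM in non-injured libraries. These rows hold few counts, and 100 of the 133 bases of Gm24451 also lie in annotated Nop56 exons. Mature snoRNAs are short, and how well they were kept in these libraries was not tested.

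**Figure D3:**
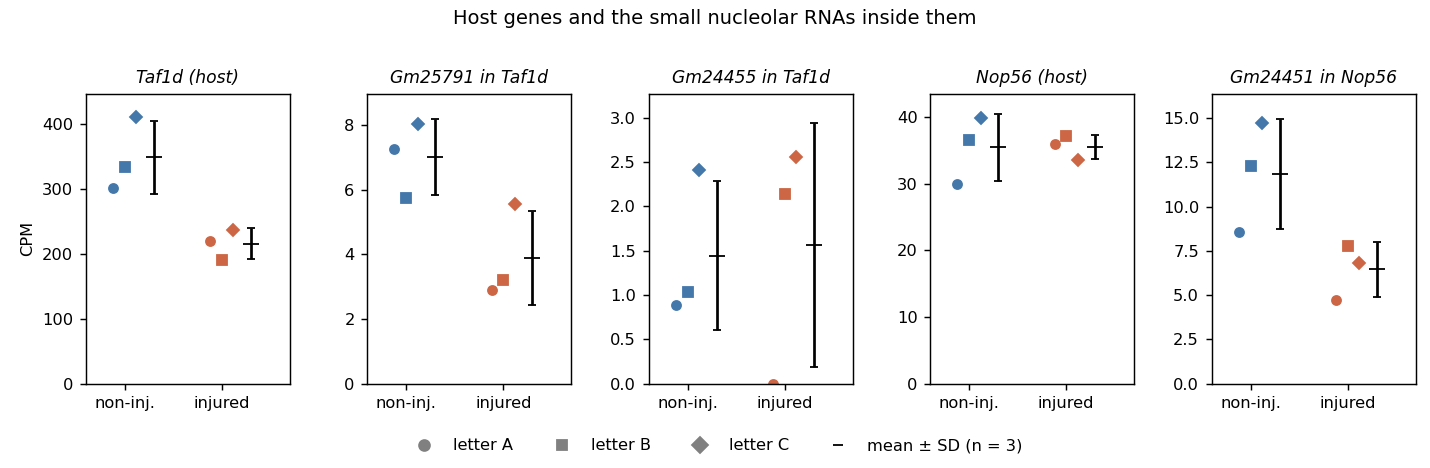
Level in CPM (y axis, starting at 0) of the host genes Taf1d and Nop56 and of the 3 snoRNAs inside them that have a row. Marks are libraries by letter, blue for non-injured and orange for injured, and black bars are mean ± SD (n = 3). Gm25791 and Gm24451 lie lower in every injured library, Taf1d does as well, and Nop56 and Gm24455 overlap.

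The nucleolar proteins outside the snoRNPs held 2 genes whose groups did not overlap, with opposite signs, and neither passed the adjusted test. Npm1, for nucleophosmin, an abundant nucleolar chaperone of ribosome assembly, had 24.7, 20.6 and 22.1 CPM in injured libraries A, B and C and 16.8, 18.9 and 15.9 CPM in the non-injured ones. All injured values were higher, with a log2 fold change of 0.38 ± 0.16 (SE), an unadjusted p of 0.0371 and an adjusted p of 0.291. Gnl3, for nucleostemin, a nucleolar GTPase known from stem and dividing cells, had 22.0, 22.8 and 22.9 CPM in injured and 31.0, 26.9 and 31.6 CPM in non-injured libraries. All injured values were lower, with a log2 fold change of -0.40 ± 0.15 (SE), an unadjusted p of 0.0182 and an adjusted p of 0.225. Like that of Taf1d, the Gnl3 row may hold more than messenger RNA. Its 3 annotated snoRNAs all lie within annotated Gnl3 exons, and 8 of its 14 transcripts are retained-intron forms.

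Ncl, for nucleolin, a major RNA-binding protein of the nucleolus, was the most abundant of the 12 genes in this group. It read 129, 138 and 155 CPM in injured and 143, 126 and 122 CPM in non-injured libraries A, B and C, and the groups overlapped (log2 fold change 0.11 ± 0.14, SE). Mybbp1a, a nucleolar protein that restrains polymerase I and several transcription factors, read 60.2, 63.6 and 74.0 CPM against 63.0, 69.8 and 69.3 CPM. Its log2 fold change of -0.03 ± 0.14 (SE) changed sign with the scaling, to 0.02 by upper quartiles. The remaining 4 lay between -0.02 and 0.16: the RNA helicase gene Ddx21 at 46.4 ± 6.44 against 41.5 ± 4.49 CPM, the snoRNP chaperone gene Nolc1 at 27.8 ± 4.49 against 25.3 ± 0.963 CPM, Tcof1, for the polymerase I cofactor treacle, at 31.1 ± 4.66 against 31.3 ± 4.70 CPM, and Surf6 at 10 ± 1.67 against 10.2 ± 1.37 CPM (SD, n = 3).

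The median log2 fold change of the 4 snoRNP core genes was -0.06, and each lay within 0.3 of zero. Fbl, for fibrillarin, the methyltransferase of box C/D snoRNPs, had 6.89, 10.2 and 9.11 CPM in injured and 6.89, 8.27 and 6.83 CPM in non-injured libraries A, B and C. The letter A libraries were at the same level, and the log2 fold change was 0.25 ± 0.24 (SE). A processed pseudogene, Fbl-ps2, has a row of its own with a mean of 13.3 counts, and reads that match both copies may be shared between them. Nop58, which pairs with Nop56 in the box C/D particle, had 13.7 ± 2.79 and 14.9 ± 2.12 CPM. Dkc1, the pseudouridine synthase of H/ACA particles, had 7.83 ± 0.956 and 9.05 ± 0.793 CPM (SD, n = 3), with a log2 fold change of -0.21 ± 0.22 (SE).

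Processing factors of the small subunit had a median log2 fold change of -0.02 over 8 genes. Bysl, for bystin, which acts late in small-subunit maturation, stood highest. It had 21.1, 26.0 and 24.8 CPM in injured and 16.8, 19.9 and 17.8 CPM in non-injured libraries A, B and C, without overlap, for a log2 fold change of 0.40 ± 0.16 (SE), an unadjusted p of 0.0293 and an adjusted p of 0.27. The Bysl row shares 361 exon bases with the cyclin gene Ccnd3 on the opposite strand, which had a log2 fold change of 0.97 and an adjusted p of 0.0947 (0.0416 with the letter as a block). Without a known strand setting the reads of this stretch cannot be told apart.

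Utp20, a very large scaffold of the small-subunit processome, had 32.9, 37.9 and 47.8 CPM in injured and 41.7, 47.9 and 51.4 CPM in non-injured libraries A, B and C. Within each letter the injured value was the lower, but the groups overlapped, with a log2 fold change of -0.25 ± 0.17 (SE). Rrp12, an export factor, had 46.2, 66.2 and 51.3 CPM against 55, 45.2 and 47.1 CPM. Its log2 fold change of 0.15 ± 0.16 (SE) rested on injured library B and was -0.01 without it.

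The other 5 small-subunit genes overlapped between groups. They were Nop14 at 25.5 ± 4.78 against 22.0 ± 3.28 CPM, Wdr43 at 30.6 ± 3.08 against 30.9 ± 6.66 CPM and Utp14a at 13.3 ± 2.85 against 15.9 ± 4.34 CPM (SD, n = 3), all components of the early processome. The U3 snoRNP gene Rrp9 stood at 9.10 ± 0.412 against 9.20 ± 2.30 CPM. Nat10, which acetylates ribosomal RNA, stood at 28.3 ± 4.13 against 30.0 ± 3.51 CPM.

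Over the 9 large-subunit factors the median log2 fold change was -0.01, with 4 positive and 5 negative. Rrs1, needed to bring the small particle of 5S RNA into the large subunit, read 21.7, 22.0 and 21.2 CPM in injured and 22.1, 35.7 and 28.6 CPM in non-injured libraries A, B and C. The injured libraries were nearly equal and all lower, but by only a narrow margin in letter A. The log2 fold change was -0.41 ± 0.18 (SE), the unadjusted p 0.0414 and the adjusted p 0.304. It was -0.25 without non-injured library B and -0.60 without non-injured library A. Nop2, a ribosomal RNA methyltransferase, had 12.6, 12.8 and 16.5 CPM against 11.4, 12.6 and 8.97 CPM, with a log2 fold change of 0.35 ± 0.21 (SE) that came mostly from letter C, and was 0.18 without injured library C and 0.19 without non-injured library C.

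Pes1, Bop1 and Wdr12 encode a complex of 3 proteins needed for the large subunit, and their log2 fold changes differed in sign. Pes1 stood at 8.88 ± 1.37 in injured and 7.10 ± 1.60 CPM in non-injured muscle, Bop1 at 14.2 ± 0.876 and 14.3 ± 3.58 CPM, and Wdr12 at 19.2 ± 2.97 and 24.1 ± 5.44 CPM (SD, n = 3). The log2 fold changes were 0.32 ± 0.25, -0.01 ± 0.21 and -0.33 ± 0.20 (SE), none of them past the test. The helicase gene Ddx18 stood at 7.72 ± 1.59 against 9.60 ± 1.14 CPM, and Nip7 at 5.18 ± 0.466 against 5.80 ± 2.05 CPM. Nop16 and Rrp1b were level, at 6.48 ± 1.72 against 6.47 ± 1.26 CPM and 15.8 ± 3.12 against 15.7 ± 1.63 CPM (SD, n = 3).

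Within the letters the direction was mixed. The log2 ratio of injured over non-injured CPM, with 0.5 added to each, had a median over the 40 genes of -0.07 in letter A, 0.01 in letter B and 0.03 in letter C, and 18, 21 and 21 of the genes were positive. A single direction in all 3 letters was found in 17 of the 40 genes (42.5%), 9 upward and 8 downward. Of all genes tested 43.5% did so, 21.6% upward and 21.9% downward. The polymerase I group held 4 of the 8 downward genes, namely Rrn3, Taf1a, Taf1b and Taf1d. Several members parted by letter instead: in Polr1b, Polr1e and Taf1c letter B was positive and letters A and C were negative.

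**Figure D4:**
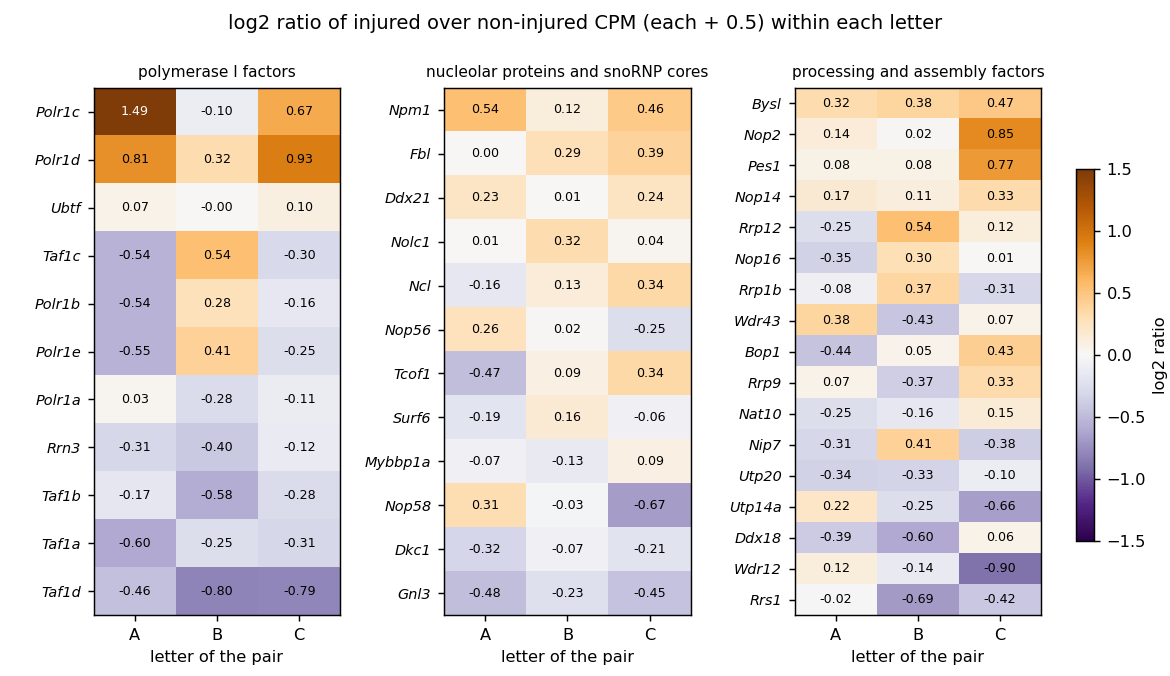
log2 ratio of injured over non-injured CPM (0.5 added to each) within letters A, B and C for each gene, in colour and as printed values. Rows are genes in the 3 groups, ordered by fold change. Taf1d, Taf1a, Taf1b and Rrn3 are negative in each letter and Polr1d positive in each, while most genes near the middle change sign between letters.

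Summed over genes, the polymerase I factors came to 391 ± 18.2 CPM in injured and 527 ± 57.1 CPM in non-injured muscle (SD, n = 3), without overlap. That gap was carried by Taf1d, because without it the other 10 summed to 175 ± 9.5 and 179 ± 15.3 CPM. The nucleolar and snoRNP proteins summed to 433 ± 27.0 and 420 ± 0.756 CPM, and the processing factors to 338 ± 25.8 and 345 ± 22.0 CPM (SD, n = 3). Both of those groups overlapped between injured and non-injured libraries. Within the processing factors the sum of the 9 large-subunit genes did not, at 111, 115 and 113 CPM in injured and 119, 126 and 123 CPM in non-injured libraries A, B and C. The widest gaps among the 9 were those of Rrs1, with means of 21.7 and 28.8 CPM, and Wdr12, with 19.2 and 24.1 CPM. Of the 9 log2 fold changes 4 were positive and 5 negative, and only Rrs1 did not overlap between the groups. The 33 members that host no snoRNA summed to 695 ± 50 and 694 ± 36.5 CPM (SD, n = 3). The 7 that host snoRNAs, Taf1d among them, summed to 467 ± 30.6 and 599 ± 55.8 CPM, without overlap. All 40 came to 1161 ± 61.7 and 1292 ± 72.2 CPM, with overlap, and without Taf1d to 946 ± 58.3 and 944 ± 36.2 CPM (SD, n = 3).

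These are bulk libraries, in which fewer cells of a type and less RNA per cell cannot be told apart. Summed markers of muscle fibres, dividing cells, macrophages, fibroblasts, endothelial cells and adipocytes stood apart between the groups. Those of erythroid cells, satellite cells, pericytes with smooth muscle, and lymphocytes overlapped. The sums over all 40 members and over the 33 that host no snoRNA overlapped as well, and that over the 7 hosts did not. The 8 endothelial markers summed to 117 to 120 CPM in the injured and 100 to 115 CPM in the non-injured libraries. Each of the 8 overlapped on its own, with 6 positive and 2 negative log2 fold changes, and 0 were called, also with the letter as a block. The 12 markers of dividing cells summed to 31.2 to 57.2 CPM in the injured and 12.7 to 13.0 CPM in the non-injured libraries, with 1 of 9 tested called higher (4 with the letter as a block). The 12 macrophage markers summed to 115 to 205 and 56.6 to 68.2 CPM, with 5 of 10 tested called higher (8 with the letter as a block), and the 10 fibroblast markers to 877 to 1300 and 716 to 760 CPM, with 3 of 10 called higher. The 5 erythroid markers summed to 132 to 324 and 71.4 to 151 CPM, with 1 called higher (4 with the letter as a block). The 7 adipocyte markers summed lower, at 47.8 to 57.7 and 71.7 to 102 CPM, with 6 negative log2 fold changes and 1 positive. Of these 7, 0 were called by edgeR (3 lower with the letter as a block) and 0 by DESeq2 and by limma-voom. At an unadjusted p under 0.05, 5 were lower, beside 6.11% of all genes. Among the fibroblast markers 9 log2 fold changes were positive and 1 negative, at -0.31. Of all genes tested edgeR called 0.715% higher and 0.0311% lower, or 3.21% and 2.65% with the letter as a block. Of the 10 muscle fibre markers, whose lower sums in the injured libraries are given above, 4 log2 fold changes were positive and 6 negative. Only 1 of the 10 did not overlap on its own, beside 21.5% of all genes, and 0 were called, also with the letter as a block. None of these markers with a row was at 0 in a whole group, and their part in the values of the ribosome biogenesis genes was not tested.

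Among 8 transcripts listed for nuclear and mitochondrial RNA, 6, all mitochondrial, had positive log2 fold changes of up to 1.03, and the nuclear RNAs Malat1 and Neat1 had negative ones down to -0.19. Of the 8, 3 were called higher by edgeR (6 with the letter as a block), beside 0.715% of all genes (3.21% with the block). Injured and non-injured libraries did not overlap in 6, beside 21.5% of all genes. Sums over all 8 overlapped, at 82504 to 107971 CPM in injured and 82561 to 97957 CPM in non-injured muscle. These sums add transcripts of opposite sign and so do not give the level of the 6 mitochondrial ones. The part of the 8 transcripts in the values of the 40 genes was not tested.

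**Figure D5:**
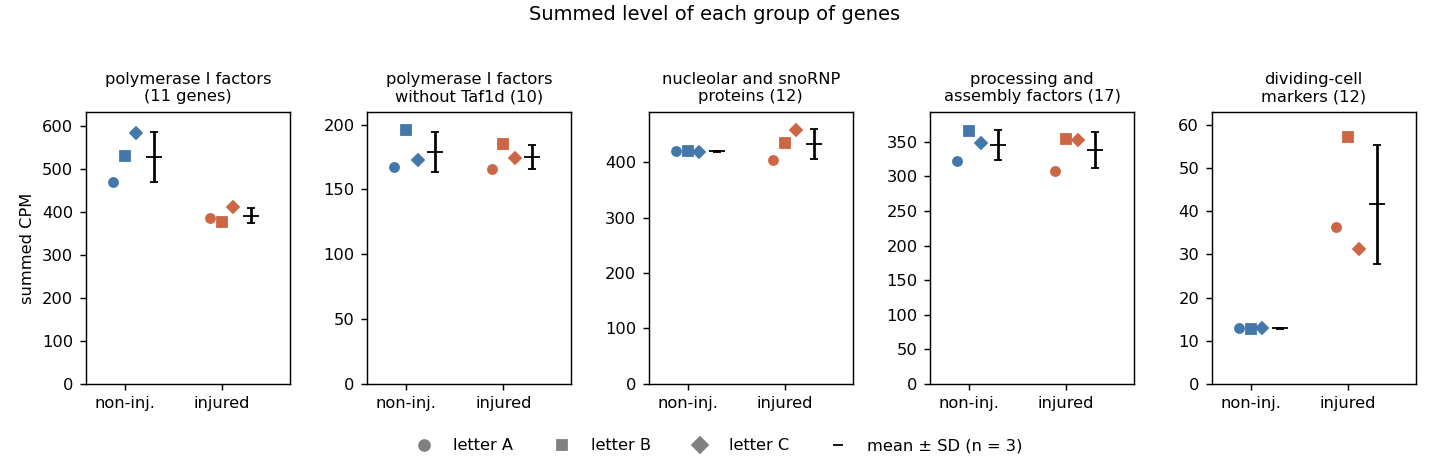
Summed CPM (y axis, starting at 0) of the polymerase I factors with and without Taf1d, the nucleolar and snoRNP proteins, the processing factors and the markers of dividing cells. Marks are libraries by letter, blue for non-injured and orange for injured, and black bars are mean ± SD (n = 3). The polymerase I sums of 391 and 527 CPM come to 175 and 179 CPM without Taf1d, while the dividing-cell markers stand apart at 31.2 to 57.2 against 12.7 to 13.0 CPM.

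Other genes of the pathway were read from the same fit. Of 196 further genes listed for ribosomal RNA synthesis and processing, 181 had a row and 180 were tested. Of these, 0 were called higher and 0 lower by edgeR, without the letter as a block (0.746% of all genes in either direction) or with it (5.86% of all genes), and DESeq2 and limma-voom also called 0. At an unadjusted p under 0.05 there were 9 (5.0%), 2 higher and 7 lower, beside the 15.4% of all genes given above. Injured and non-injured libraries did not overlap in 26 of the 180 (14.4%), beside 21.5% of all genes. The median log2 fold change was -0.06, with 64 genes positive and 116 negative, beside 8086 positive and 8009 negative among all genes tested.

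Among the 26 further polymerase I subunits and regulators, the lowest p values were those of the S6 kinase gene Rps6kb1 and of Twistnb, a polymerase I subunit. Rps6kb1 read 38, 28 and 33.5 CPM in injured and 47.4, 40.6 and 39.8 CPM in non-injured libraries A, B and C (log2 fold change -0.36, SE 0.16, adjusted p 0.295). Twistnb read 5.82, 4.28 and 7.40 CPM against 7.53, 9.64 and 8.97 CPM (log2 fold change -0.58 ± 0.26 SE, adjusted p = 0.324). In both, all injured libraries were below all non-injured ones.

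The 55 further small-subunit factors had a median of -0.09 and the 56 further large-subunit factors a median of -0.05. Their lowest p values belonged to Rrp7a, at a log2 fold change of 0.65 ± 0.22 (SE) and an adjusted p of 0.181, the atypical kinase gene Riok1 at -0.47 ± 0.19, the helicase gene Ddx54 at 0.60 ± 0.21 and the export adaptor gene Nmd3 at -0.51 ± 0.19 (SE). The 20 genes of snoRNP assembly and the RNase P and MRP particles had a median of -0.01, and the 13 exosome genes -0.14. Rpp38, an RNase P and MRP subunit gene, had the lowest log2 fold change of the 180, at -1.03 ± 0.47 (SE), with an unadjusted p of 0.048 and an adjusted p of 0.323. Its level was low, at 1.99, 2.60 and 0.712 CPM in injured and 4.46, 3.67 and 2.68 CPM in non-injured libraries A, B and C, without overlap. In the exosome list Mtrex, the helicase that feeds RNA to the nuclear exosome, read 34.1, 34.8 and 34.3 CPM in injured and 42.6, 43.4 and 46.7 CPM in non-injured libraries, with a log2 fold change of -0.36 ± 0.14 (SE) and an adjusted p of 0.23.

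The transcription factor MYC is known to drive many genes of ribosome production through the E-box, which is CACGTG on either strand since it reads alike on both. Myc itself read 5.21, 5.50 and 10.7 CPM in injured and 2.42, 4.82 and 5.62 CPM in non-injured libraries A, B and C. Within each letter the injured value was the higher, but the groups overlapped, and its log2 fold change of 0.74 ± 0.37 (SE) had an adjusted p of 0.373. Of the 11 tested genes of the Myc network 0 were called by edgeR, beside 0.746% of all genes. An unadjusted p under 0.05 was found in 0 of the 11, beside 15.4% of all genes. Counts of 0 among so few genes say little about this list.

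Promoter windows from 250 bases before to 50 after the gene start were taken from RefSeq on GRCm38.p6, and 34 of the 40 genes had one. The E-box was in 6 of the 34 (17.6%), beside 2187 of all 27025 genes with a window (8.09%). By group it was in 1 of 11 polymerase I genes, 1 of 9 nucleolar and 4 of 14 processing genes. A match describes these letters and is not a binding site. The stretches around each match are shown so that the members that carry it can be compared, with the E-box in capitals, on the strand of the gene, 5′ to 3′.
Mybbp1a, chr11:72441355-72441376, plus strand: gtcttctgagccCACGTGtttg
Nop2, chr6:125131811-125131840, plus strand: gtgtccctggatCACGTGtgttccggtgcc
Pes1, chr11:3963965-3963994, plus strand: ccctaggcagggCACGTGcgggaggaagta
Rrn3, chr16:13780472-13780501, plus strand: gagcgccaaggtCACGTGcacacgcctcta
Rrn3, chr16:13780639-13780668, plus strand: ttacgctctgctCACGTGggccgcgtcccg
Utp20, chr10:88826765-88826789, minus strand: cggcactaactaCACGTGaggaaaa
Wdr43, chr17:71616220-71616249, plus strand: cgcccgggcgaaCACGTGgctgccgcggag

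The log2 fold changes of these 6 genes ran from -0.28 for Rrn3, whose window holds the motif in 2 places, to 0.35 for Nop2, with Pes1 at 0.32, Wdr43 at -0.01, Mybbp1a at -0.03 and Utp20 at -0.25. Genes with the motif therefore lay on both sides of zero. None of them passed the test.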

How the data were processed

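The authors deposited estimated counts per gene for 6 libraries. STAR 2.7.8a, Partek and DESeq2 and the builds mm10 and hg19 stand in the submitters' processing notes. Counter, strand setting and annotation: not given in the sources used here. No row has a maximum under 10, and 75.4% of the 240 values of the 40 genes are whole.

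Counts were rounded. Genes were kept by filterByExpr, scaled by TMM and tested over all 16095 genes with edgeR 4.0.16 (R 4.3.3), two-sided, with Benjamini-Hochberg adjustment and a threshold of 0.05. Dividing the size of a log2 fold change by the root of its F statistic gave the SE. CPM use the TMM-scaled totals. DESeq2 1.42.0, limma 3.58.1, 2 scalings, 2 filters, a replicate block and left-out libraries were alternatives.

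The letters were taken to pair the libraries, although the labels give no meaning for them. Deviations from the group means correlated at 0.316 (A), 0.208 (B) and 0.113 (C) between same-letter libraries. Between libraries of different letters the correlations ran from -0.232 to 0.0643, the highest for injured B with non-injured C. Letter C was thus little above that value, and the pairing was not tested. Values per library are given for genes with an unadjusted p under 0.05 or passing with the block, the 3 largest changes and 2 highest levels of each group, and of each further list up to 3 genes of smallest p. Per-library values of Rrn3, Taf1a, Taf1b and Nop56 were added after they were seen. The genes and lists were chosen with earlier results of these data known.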

Additional observations from a re-analysis of the deposited data

How the results depend on the processing

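With the letter as a replicate block, members called were 1 higher and 1 lower, against 0 and 0 without it, and all genes called were 516 higher and 427 lower, against 115 and 5. DESeq2 called 1 member lower and 252 and 75 of all genes, limma-voom 53 of all genes higher, and leaving out both letter A libraries gave 1 member and 132 genes lower. Without a filter 17 of all genes were lower, and with a mean of at least 50 counts, which keeps 35 of the 40 members, 3. Leaving out 1 library at a time gave 0 to 1 members lower (1 without non-injured A), 20 to 104 of all genes higher and 0 to 25 lower. The fewest higher, 20 and 36, came without non-injured C and injured C, with 46, 62 and 70 without non-injured B, injured A and injured B. The cause was not tested.

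The medians are near 0 and moved across it. For polymerase I factors the median was 0.04 without both letter A libraries and -0.32 to -0.05 with 1 library left out. The nucleolar group had 0.08 without both letter A libraries, 0.06 at a mean of 50 counts and -0.02 to 0.09 with 1 left out. The processing group had -0.07 without a filter, 0.05 at a mean of 50 counts and -0.10 to -0.01 with 1 left out, and all members 0.04 without both letter A libraries, 0.05 at a mean of 50 counts and -0.09 to 0.01 with 1 left out. Of 195 values of 14 named members under 14 alternatives, 186 kept direction and side of the threshold, 5 passed newly (Taf1d and Polr1d) and 4 changed sign. Mybbp1a was 0.02 by upper quartiles, 0.04 at a mean of 50 counts and -0.15 to 0.02 with 1 left out, and Rrp12 was -0.01 to 0.24 with 1 left out. Low counts limit Gm24455 and Polr1e most.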

Other observations

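RNA polymerase III, which makes transfer RNAs and 5S ribosomal RNA and shares Polr1c and Polr1d with polymerase I, was looked at after the values of those shared subunits were seen. Its 11 own subunit genes had log2 fold changes from -0.25 to 0.13 with a median of -0.04, and injured and non-injured libraries overlapped in all 11, where 21.5% of all genes did not overlap. Of them 0 were called by edgeR, with or without the letter as a block, 0 by DESeq2 and limma-voom, and 0 had an unadjusted p under 0.05, beside 15.4% of all genes.

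Rmrp, the RNA of the RNase MRP particle that cuts precursor ribosomal RNA, was by far the highest row of the snoRNP and RNase list and is named after its values were seen. It ran from 1955 to 4340 CPM in the injured and from 3194 to 5285 CPM in the non-injured libraries, with letter A lowest in both groups, and its log2 fold change was -0.33 ± 0.26 (SE, adjusted p = 0.586).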
